A study of Homo sapiens with 5 samples.

Results

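The neutrophil secondary granule and CEACAM genes described here are CEACAM8, CEACAM6, CEACAM1, LTF, LCN2, OLFM4, CAMP, CRISP3 and PGLYRP1. The list was given by gene name, at a time when results of these data were known, and all 9 were found by Ensembl gene ID among the 51055 genes of the deposited count table. RNA was sequenced from HL60, an established human promyelocytic leukaemia line, in 5 libraries. One library came from untransduced cells. A pair of libraries, SCR 1 and SCR 2, came from cells with the control lentivector SCR, which the labels call scramble in one place and empty in another. A further pair, ZIP 1 and ZIP 2, came from cells with the lentivector ZIP, whose hairpin RNA is antisense to miR-378a-3p. The SCR and ZIP cells share the lentiviral backbone with its green fluorescent protein, a multiplicity of infection of 20, polybrene at 8 µg/mL, and puromycin at 2 µg/mL from day 3 to day 8. The untransduced cells had none of these, so that transduction, selection and vector cannot be told apart in a comparison with them. Nothing in the labels says that the paired libraries came from separate cultures, and the spread that p-values rest on may therefore be technical.

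Neutrophils fill their granules in stages as they mature. Promyelocytes make the primary (azurophil) granules with myeloperoxidase and serine proteases, and the later myelocytes and metamyelocytes make the secondary (specific) granules with lactoferrin, the cathelicidin precursor and other antimicrobial proteins. The transcription factor C/EBPε, encoded by CEBPE, drives the second stage, and HL60 cells are known for making little secondary granule protein. CEACAM proteins are immunoglobulin-like adhesion molecules; in the granulocyte lineage CEACAM8 (CD66b) and CEACAM6 (CD66c) are anchored to the membrane by lipid and CEACAM1 (CD66a) spans it and carries inhibitory motifs.

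The promoters of the 3 CEACAM members are shown because these genes sat next to or near each other and moved in the same direction in every comparison below. Each is the 250 bases before the start of the gene, 5′ to 3′ on the gene's own strand, from RefSeq (GRCh38.p14), with letters of the searched motifs in capitals. RefSeq starts these genes elsewhere than GENCODE release 29, whose coordinates are given further on: the windows of CEACAM6 and CEACAM1 lie inside the GENCODE gene spans, and that of CEACAM8 lies partly inside.
CEACAM8, chr19:42594925-42595174, minus strand: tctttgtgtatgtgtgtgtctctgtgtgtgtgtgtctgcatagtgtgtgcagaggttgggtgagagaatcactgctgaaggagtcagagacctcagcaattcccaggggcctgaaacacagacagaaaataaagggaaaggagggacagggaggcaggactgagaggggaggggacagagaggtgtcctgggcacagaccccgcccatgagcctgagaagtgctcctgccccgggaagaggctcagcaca
CEACAM6, chr19:41755280-41755529, plus strand: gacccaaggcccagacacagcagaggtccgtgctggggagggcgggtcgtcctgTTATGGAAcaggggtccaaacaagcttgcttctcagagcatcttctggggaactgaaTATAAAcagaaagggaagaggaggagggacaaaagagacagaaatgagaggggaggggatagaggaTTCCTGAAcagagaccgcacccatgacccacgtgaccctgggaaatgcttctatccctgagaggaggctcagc
CEACAM1, chr19:42528482-42528731, minus strand: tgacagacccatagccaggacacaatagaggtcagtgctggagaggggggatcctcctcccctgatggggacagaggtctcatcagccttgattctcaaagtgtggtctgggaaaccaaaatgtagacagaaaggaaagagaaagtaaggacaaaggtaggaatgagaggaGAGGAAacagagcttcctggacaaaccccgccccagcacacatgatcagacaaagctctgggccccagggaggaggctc
The searched motifs were C/EBP (TTNNGNAA), PU.1 (GAGGAA) and the TATA box (TATAAA), on both strands. The window of CEACAM6 held 2 C/EBP matches and 1 TATA match, that of CEACAM1 held 1 PU.1 match, and that of CEACAM8 held none. A PU.1 match can lie inside a C/EBP match. RefSeq had a window for 8 of the 9 genes (LTF has several), and 4 of the 8 genes held a C/EBP match in any window and 4 a PU.1 match. Of all 35116 windows of this length 33.2% held a C/EBP match, 23.6% a PU.1 match and 10.7% a TATA match. These shares count single windows and the member counts are by gene, so they are not like for like. Aligned to each other, the windows of CEACAM1 and CEACAM6 were identical at 74.4% of aligned bases, those of CEACAM1 and CEACAM8 at 72.4% and those of CEACAM6 and CEACAM8 at 69.3%. A match is a run of letters and shows no binding.

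The RNA against which the ZIP vector is directed is shown for the search of its target letters, with the seed (bases 2 to 8) in capitals.
hsa-miR-378a-3p: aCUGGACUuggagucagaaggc
The complement of that seed, AGTCCAG, occurred in an annotated 3′ UTR of 0 of the 9 genes (GENCODE release 29). It occurred in 14.5% of the 12076 genes with such a UTR that were tested in ZIP against SCR.

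All 8 members with any count stood highest in the untransduced library, but the share of all genes with that order was not counted. For LCN2 and CAMP it rested on 5 and 8 untransduced counts. The CPM (counts scaled to library size, with TMM factors) of CEACAM8, a surface marker of secondary granule membranes, were 23.8 without a vector. SCR 1 had 0.552 and SCR 2 had 0.428, whereas ZIP 1 and ZIP 2 both had 1.8. The untransduced library was far above both pairs, and the ZIP pair lay above the SCR pair. CEACAM6 stood at 34.0 CPM untransduced, 7.69 and 6.54 in SCR, and 15.3 and 16.1 in ZIP. CEACAM1 stood at 5.09 CPM untransduced, 0.552 and 0.389 in SCR, and 1.67 and 2.11 in ZIP. All 3 CEACAM genes therefore showed one order, untransduced above ZIP above SCR.

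LTF encodes lactoferrin, the iron-binding protein of secondary granules. Its level was 7.35 CPM untransduced, against 0.552 and 0.584 for SCR and 0.490 and 0.414 for ZIP, so that here the ZIP pair was not above the SCR pair. PGLYRP1, a peptidoglycan-binding antibacterial protein, stood at 3.09 CPM untransduced, 0.394 and 0.584 for SCR, and 0.588 and 0.662 for ZIP. Its SCR and ZIP pairs were nearly adjacent, with SCR 2 at 15 counts and ZIP 2 at 16. OLFM4, a granule glycoprotein made by a subset of neutrophils, had 31 counts (1.29 CPM) untransduced, 0 and 1 in SCR, and 6 and 4 in ZIP. At such counts only large differences can be seen.

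The remaining members were at the edge of detection. LCN2, the siderophore-binding lipocalin, had 5 counts (0.209 CPM) in the untransduced library and none in the other libraries. CAMP, which encodes the precursor of the antimicrobial peptide LL-37, had 8 counts untransduced, 3 and 2 in SCR, and 5 and 0 in ZIP. CRISP3, a cysteine-rich secretory protein of secondary granules, had no count in any library. A count of 0 allows up to 3 counts, which is 0.0980 to 0.125 CPM in single libraries, and these limits cover counting error only. In bulk RNA fewer cells making a gene and less RNA per cell cannot be told apart.

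**Figure D1:**
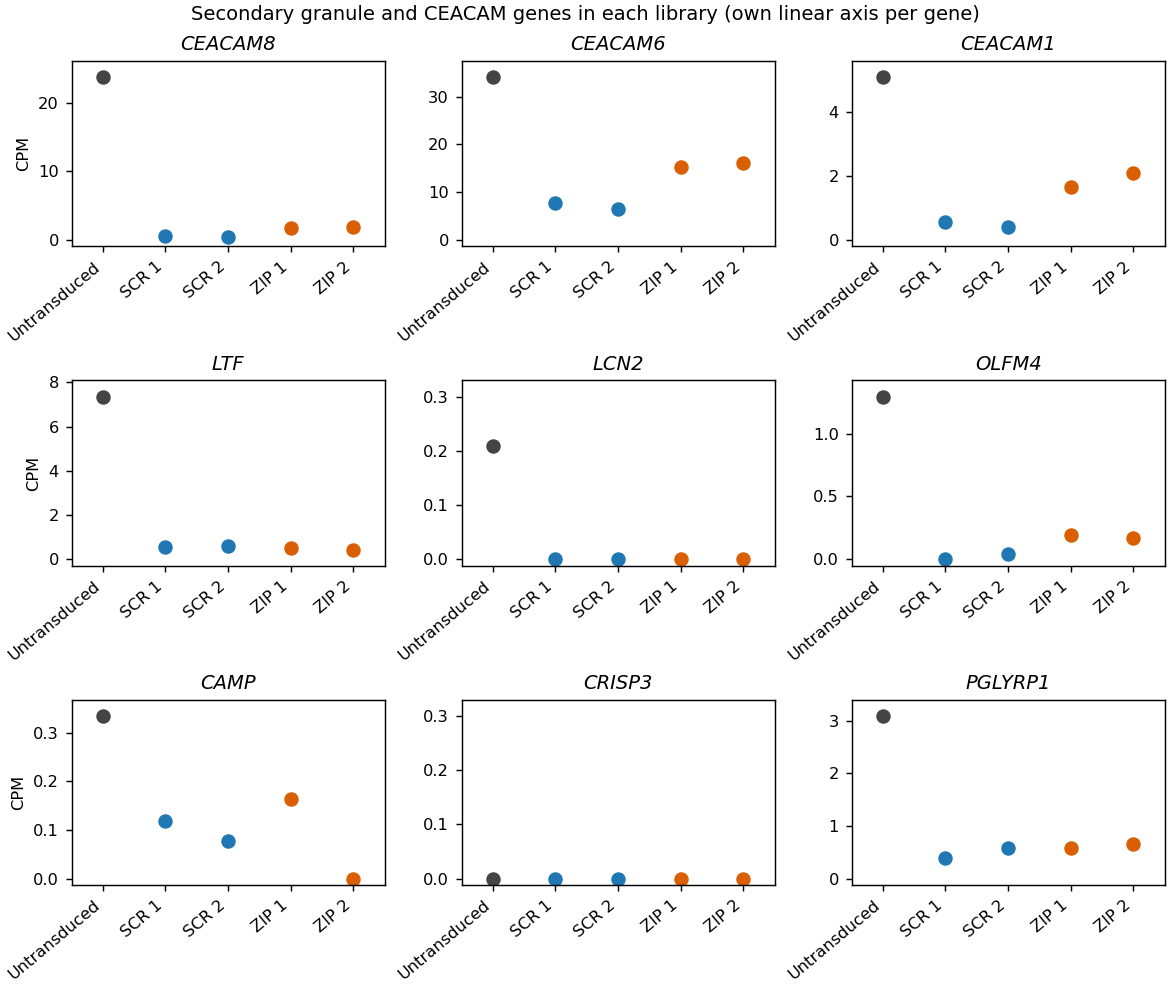
CPM of each of the 9 genes (vertical, linear, a separate scale for each gene) in the 5 libraries (horizontal); each point is 1 library. The untransduced library is the highest for the 8 genes with a count (on only 5 counts for LCN2 and 8 for CAMP). The ZIP points lie above the SCR points for CEACAM8 (1.8 in both ZIP libraries against 0.552 and 0.428), CEACAM6 and CEACAM1.

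The first comparison set the SCR cells beside the untransduced cells, which shows the state of the control cells. CEACAM8, CEACAM6, CEACAM1, LTF and PGLYRP1 were all lower in SCR, and OLFM4 also passed as lower. Among all 15832 genes tested 32.2% were lower and 32.7% higher in SCR (edgeR quasi-likelihood test, Benjamini-Hochberg adjusted p under 0.05). OLFM4 entered only through its untransduced counts and had to differ, in both comparisons with that library. The other 5 had at least 10 counts in each SCR and ZIP library, and the median log2 fold change of these 5 was -3.42 in SCR, against 0.016 over all genes tested. All 5 fitted falls were at least 4-fold, as were those of 1.21% of the genes tested.

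CEACAM8 was 48.0-fold lower in SCR, a log2 fold change of -5.59 ± 0.17 (SE; adjusted p = 5.8e-18, edgeR). That left 2.06% of its untransduced level, and the library at 569 counts was set against 14 and 11. LTF was 12.8-fold lower (-3.68 ± 0.23, adjusted p = 2.8e-12) and CEACAM1 10.7-fold lower (-3.42 ± 0.27, adjusted p = 1.7e-10). PGLYRP1 was 6.26-fold lower (-2.65 ± 0.32, adjusted p = 1.4e-07) and CEACAM6 4.78-fold lower (-2.26 ± 0.094, adjusted p = 1.3e-15). CEACAM6 thus kept 20.9% of its untransduced level and PGLYRP1 15.8%, with overlapping intervals of the ratio. For OLFM4, with 1 count over both SCR libraries, the ratio of untransduced to SCR was 66.1 with an exact (Clopper-Pearson) 95% interval of 11 to 2693. LCN2, with 5 counts against none, was not tested, and with no filter on low counts its adjusted p was 0.056 in both comparisons with the untransduced library (edgeR). The ratio of untransduced to SCR for CAMP was 3.41 (95% interval 0.984 to 13.2). Having no replicate, the untransduced library was taken to have the same spread as the transduced pairs.

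The comparison of ZIP with SCR had a vector on both sides. Since the labels name no separate cultures, an effect of the hairpin cannot be told apart from a difference between transduced cell pools. Of 5 members tested CEACAM8, CEACAM6 and CEACAM1 were higher in ZIP, 0 were lower, and LTF and PGLYRP1 did not pass. Over all 14643 genes tested 32.2% were higher in the ZIP cells and 33.2% were lower by the same test. The median log2 fold change of the 5 was 1.14, and that of all genes was -0.0018. ZIP against SCR and SCR against untransduced share the SCR libraries, and ZIP against untransduced shares a group with each, so that the 3 sets of values are not independent.

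CEACAM1 rose 3.94-fold in ZIP (log2 fold change 1.98 ± 0.30, adjusted p = 7.9e-06, edgeR), from 14 and 10 counts to 51 and 51. CEACAM8 rose 3.67-fold (1.87 ± 0.29, adjusted p = 9.2e-06), from 14 and 11 counts to 55 and 44. CEACAM6 rose 2.20-fold (1.14 ± 0.094, adjusted p = 1.4e-09), from 195 and 168 counts to 467 and 390. Each of the 3 was higher in both ZIP libraries than in either SCR library, but the share of all genes that separate in this way was not counted. LTF, by contrast with its fall from the untransduced level, had a log2 difference of -0.31 (95% interval -1.12 to 0.50, adjusted p = 0.498), and PGLYRP1 one of 0.34 (-0.46 to 1.14, adjusted p = 0.451). Those intervals reach past a 2-fold fall for LTF and a 2-fold rise for PGLYRP1, so the data do not show that these genes were equal in the SCR and ZIP cells. OLFM4 was not tested in this comparison; its 10 counts over the ZIP libraries against 1 over the SCR libraries gave a ratio of 9.32 with an exact 95% interval of 1.33 to 404. When the fit took in all 5 libraries OLFM4 passed (log2 fold change 2.94 ± 1.1, adjusted p = 0.0297), and with no filter on low counts it did not (adjusted p = 0.0612).

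Against the untransduced library the ZIP cells were also lower in CEACAM8, CEACAM6, CEACAM1, LTF and PGLYRP1. Of all genes tested 29.7% were lower and 28.5% higher in ZIP, and falls of at least 4-fold made up 1.17%. Of these 5 members 3 fell at least 4-fold, and their median log2 fold change was -2.31 against 0.0015 over all genes. LTF was 15.9-fold under the untransduced level (-4.00 ± 0.24, adjusted p = 1.9e-12, edgeR), followed by CEACAM8 at 13.1-fold (-3.71 ± 0.13, adjusted p = 1.9e-16). PGLYRP1 was 4.94-fold lower (-2.31 ± 0.30, adjusted p = 6.5e-07). For OLFM4, with 31 counts untransduced and 10 over both ZIP libraries, the ratio of untransduced to ZIP was 7.09 with an exact 95% interval of 3.39 to 16.2. CEACAM1 was 2.73-fold lower (-1.45 ± 0.21, adjusted p = 2.8e-06) and CEACAM6 2.17-fold lower (-1.12 ± 0.081, adjusted p = 5.1e-11). In shares of the untransduced level, ZIP cells held 46.1% of CEACAM6, 37.1% of CEACAM1, 20.2% of PGLYRP1, 14.0% of OLFM4, 7.61% of CEACAM8 and 6.15% of LTF. In CPM the rise of CEACAM8 over SCR therefore covered a small part of the distance to the untransduced level. On the log2 scale that rise was 1.87, beside -5.59 in SCR against untransduced.

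**Figure D2:**
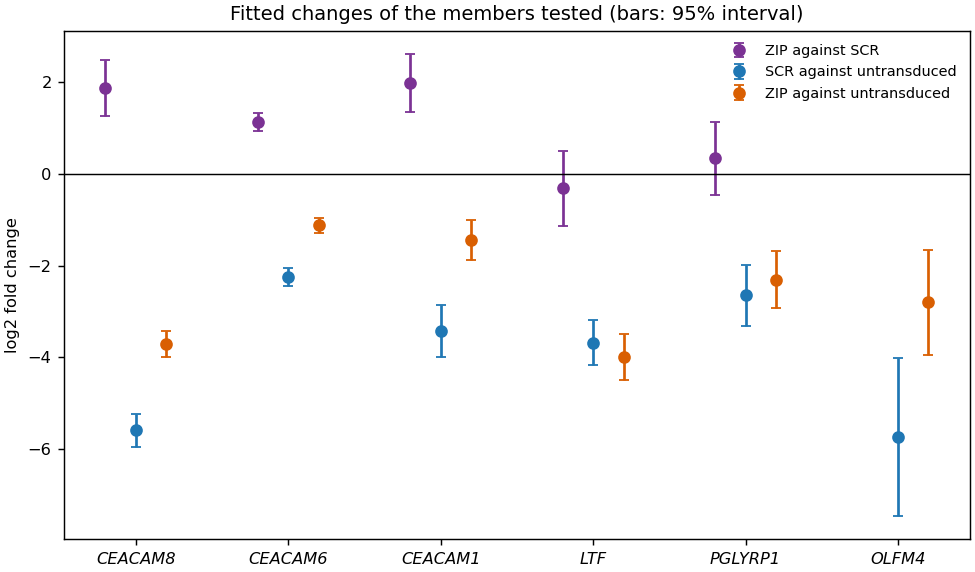
Fitted log2 fold change (vertical) of the members tested (horizontal) in the 3 comparisons, with 95% intervals; OLFM4 was not tested in ZIP against SCR. The purple ZIP against SCR points lie above 0 for CEACAM8 (1.87), CEACAM6 (1.14) and CEACAM1 (1.98), their intervals cross 0 for LTF and PGLYRP1, and all points against the untransduced library lie below 0.

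Levels of different genes were compared per kilobase of exon. In the untransduced library CEACAM6 led with 11.1 CPM per kb, then CEACAM8 with 9.31, PGLYRP1 with 4.29, LTF with 1.73 and CEACAM1 with 0.922. The exact Poisson 95% intervals of these 5 did not overlap between neighbours. CAMP (0.448) and OLFM4 (0.447 CPM per kb) could not be ordered, and the wide interval of CAMP, on 8 counts, also reached that of CEACAM1. LCN2 followed at 0.131 with an interval that reached those of CAMP and OLFM4, and CRISP3 was at 0. In SCR the order per kb was CEACAM6 (2.33), PGLYRP1 (0.679), CEACAM8 (0.192), LTF (0.134), CAMP (0.132), CEACAM1 (0.0852) and OLFM4 (0.0067). There the intervals of CEACAM8, LTF, CAMP and CEACAM1 all overlapped. In ZIP CEACAM6 (5.14) was again first, PGLYRP1 (0.868) and CEACAM8 (0.709) had overlapping intervals, and CEACAM1 (0.342 CPM per kb) was followed by CAMP (0.110), LTF (0.106) and OLFM4 (0.062). The interval of CAMP, on 5 counts, overlapped those of CEACAM1, LTF and OLFM4, and those of LTF and OLFM4 overlapped each other. CEACAM8 thus stood above PGLYRP1 in the untransduced cells and below it in SCR.

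The 3 CEACAM members lie on chromosome 19 in GRCh38 (GENCODE release 29). CEACAM6 (ENSG00000086548) runs from 41750977 to 41772208 on the plus strand, CEACAM1 (ENSG00000079385) from 42507304 to 42561234 and CEACAM8 (ENSG00000124469) from 42580241 to 42595055, both on the minus strand. CEACAM1 and CEACAM8 are direct neighbours among the protein-coding genes of the table, 19.0 kb apart. On its other side CEACAM8 borders PSG3, a pregnancy-specific glycoprotein gene, and CEACAM1 borders the chemokine gene CXCL17, and both of these had no count in any library. CEACAM6 lies between CEACAM5, with 1 count untransduced, 4 and 8 in SCR and 5 and 3 in ZIP, and CEACAM3. CEACAM3, a phagocytic receptor of granulocytes, went from 18 and 14 counts in SCR to 3 and 7 in ZIP (log2 fold change -1.75 ± 0.51, adjusted p = 0.0050, edgeR), opposite in sign to CEACAM6 next to it. It passed the count filter there only through its SCR counts, which favoured a fall in advance, so its p-value lends that fall no support.

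Of 8 other CEACAM genes in the table, 4 were tested in ZIP against SCR, and 3 were lower and 0 higher (median -0.84). CEACAM3, one of the 3, entered only through its SCR counts. CEACAM19 was lower by -0.77 ± 0.25 (adjusted p = 0.012) and CEACAM21 by -0.92 ± 0.32 (adjusted p = 0.017) on the log2 scale, and CEACAM4, a granulocyte receptor, had -0.50 ± 0.26 (adjusted p = 0.10). All 4 stood under 2.5 CPM in every library. Against the untransduced library 1 of the 4 was lower in SCR (CEACAM4, -0.72 ± 0.27, adjusted p = 0.022) and all 4 were lower in ZIP. CEACAM7, CEACAM16 and CEACAM18 had at most 2 counts in any library. The difference between the 3 members and the other family genes was not tested.

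**Figure D3:**
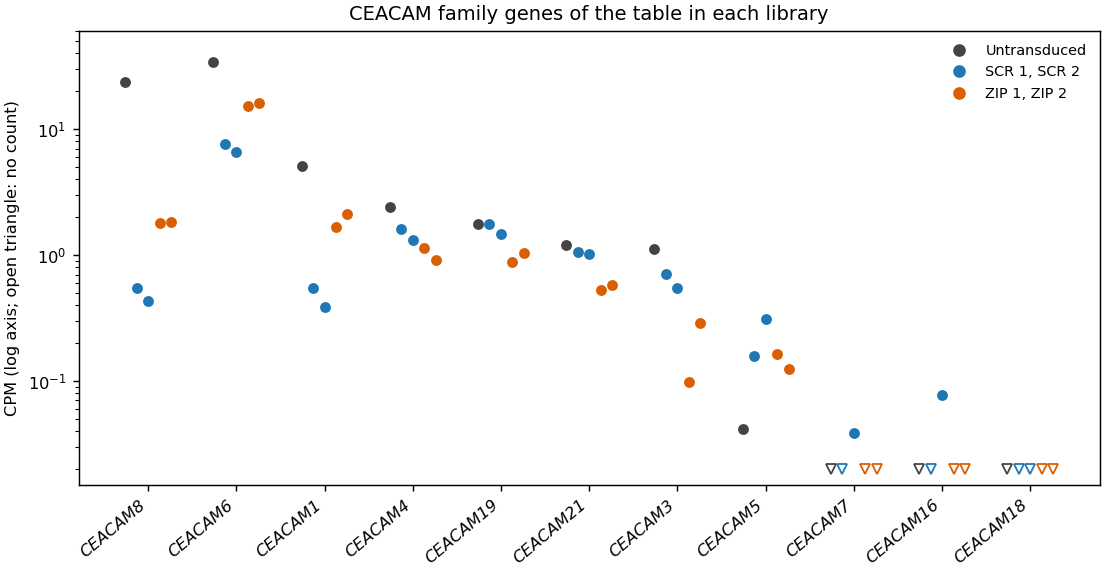
CPM (vertical, log axis) of the 11 CEACAM genes of the table in each library; open triangles mark libraries with no count. CEACAM8, CEACAM6 and CEACAM1 have the order untransduced, ZIP, SCR, while the ZIP points of CEACAM3, CEACAM4, CEACAM19 and CEACAM21 lie below the SCR points.

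Parts of the CEACAM transcripts are shared with other genes, which bears on how reads were assigned. Of all 50-base words in annotated transcripts, 6.99% of those of CEACAM6, 3.65% of those of CEACAM8 and 3.29% of those of CEACAM1 also occurred in a transcript of another gene. The gene sharing most with CEACAM6 was AC243967.1 (3.73% of its words), a protein-coding GENCODE gene that overlaps it on the same strand and was not found by its ID in the count table. CEACAM1 shared most with CEACAM3 (1.5%) and CEACAM8 with CEACAM6 (1.14%). For LTF, LCN2, OLFM4, CAMP, CRISP3 and PGLYRP1 the share was 0. PGLYRP1 (chromosome 19, 46019153 to 46023065, minus strand) overlaps CCDC61, a centriole protein gene of the opposite strand with 298 to 440 counts per library. No source used here says whether counting used strand, so that counts in that overlap are uncertain. CCDC61 was lower by -0.50 ± 0.10 in SCR than in the untransduced library (adjusted p = 0.00012, edgeR) and had 0.042 ± 0.087 in ZIP against SCR. LIPE-AS1, antisense to CEACAM1 and CEACAM8, had at most 2 counts. LTF lies on chromosome 3 from 46435645 to 46485234, and its neighbour CCRL2, an atypical chemokine receptor gene, went the other way in SCR, from 1 count untransduced to 45 and 35, with 0 and 2 in ZIP.

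Other granule and secreted proteins of maturing neutrophils did not follow the members as a group. Of 19 such genes tested in ZIP against SCR 5 were higher and 12 lower (median -0.75), and in SCR against untransduced 10 were higher and 7 lower of 21 (median 0.61). MMP9, the gelatinase of tertiary granules, had 0.250 CPM untransduced, 19.1 and 20.4 in SCR, and 1.27 and 1.12 in ZIP, the reverse of the CEACAM order. CYBB, the catalytic chain of the phagocyte oxidase, was also highest in SCR (452 and 445 CPM against 174 untransduced and 241 and 237 in ZIP), as was LRG1, a secreted leucine-rich glycoprotein (21.0 and 20.5 against 10.7 and 7.02 and 6.45 CPM). CYBA, the smaller chain of the same oxidase, had the order of the CEACAM genes, with 199.6 CPM untransduced, 98.7 and 99.6 in SCR, and 133 and 131 in ZIP. A further 3 genes of the list, picked after their values were seen, were low in SCR: MMP8, the neutrophil collagenase (2.38 CPM untransduced, 0.197 and 0.117 in SCR, 0.0980 and 0.0827 in ZIP), the protease inhibitor SLPI (10.2 CPM untransduced, 2.64 and 2.37, 7.65 and 6.74) and the transporter ABCA13 (3.46 CPM untransduced, 0.631 and 0.778, 4.18 and 4.72). MMP8 resembled LTF in staying low in ZIP, and SLPI and ABCA13 were nearer to their untransduced level there. MMP8, one of the 7 lower in SCR, entered the fits with the untransduced library only through that library, which set its direction. TCN1 and PTX3, also picked after their values were seen, went the other way and were highest in SCR. TCN1 had 0.125 CPM untransduced, 1.46 and 1.32 in SCR, and 0.261 and 0.414 in ZIP. PTX3 had 1.59 CPM untransduced, 7.26 and 6.73 in SCR, and 2.19 and 1.70 in ZIP.

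Primary granule genes, the products of the preceding stage, were lower in SCR in 11 of 13 tested (median -1.10) and higher in ZIP than in SCR in 10 of 13 (median 0.76). In ZIP against untransduced 5 were higher and 7 lower (median -0.18); the difference from the members was not tested. The protease PRTN3, which cleaves the CAMP precursor, had 3197 CPM untransduced, 821 and 834 in SCR, and 3286 and 3184 in ZIP. CTSG stood at 205 CPM untransduced, 76.5 and 76.4 in SCR, and 346 and 342 in ZIP. ELANE went from 1378 CPM untransduced to 487 and 456 in SCR and 1572 and 1504 in ZIP, and MPO from 19034 to 9974 and 9999 and then 17062 and 16596. In ZIP against untransduced these 4 had log2 fold changes from -0.18 (MPO) to 0.75 (CTSG), with PRTN3 at 0.017 (adjusted p = 0.462, edgeR), beside -3.71 for CEACAM8 and -4.00 for LTF. Other genes of the list, picked after their values were seen, stayed low there: DEFA3 (-2.39), DEFA4 (-2.11), BPI (-1.34) and AZU1 (-0.74). They are among the 7 lower, beside 5 higher. DEFA3 and DEFA4 thus lay near PGLYRP1 (-2.31), and BPI near CEACAM1 (-1.45).

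Of 14 transcription factors of granulocyte maturation tested in ZIP against SCR 4 were higher and 8 lower (median -0.17). CEBPB was lower by -1.78 ± 0.037 and STAT3 by -0.56 ± 0.035, while SATB1 was higher by 1.06 ± 0.044 and CEBPA by 0.54 ± 0.030 on the log2 scale (adjusted p of 1.7e-11 or less, edgeR). CEBPE and GATA1 are named here after their values were seen, because of what they are known to drive. CEBPE stood at 293 CPM untransduced, 119 and 116 in SCR, and 119 and 120 in ZIP. It was lower in SCR by -1.31 ± 0.034 (adjusted p = 2.4e-19) and in ZIP by -1.30 ± 0.034 against untransduced, and had 0.019 ± 0.029 in ZIP against SCR (adjusted p = 0.584). GATA1, a factor of erythroid, eosinophil and mast cells, had 2.59 CPM untransduced, 0.315 and 0.428 in SCR, and 0.131 and 0.165 in ZIP.

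**Figure D4:**
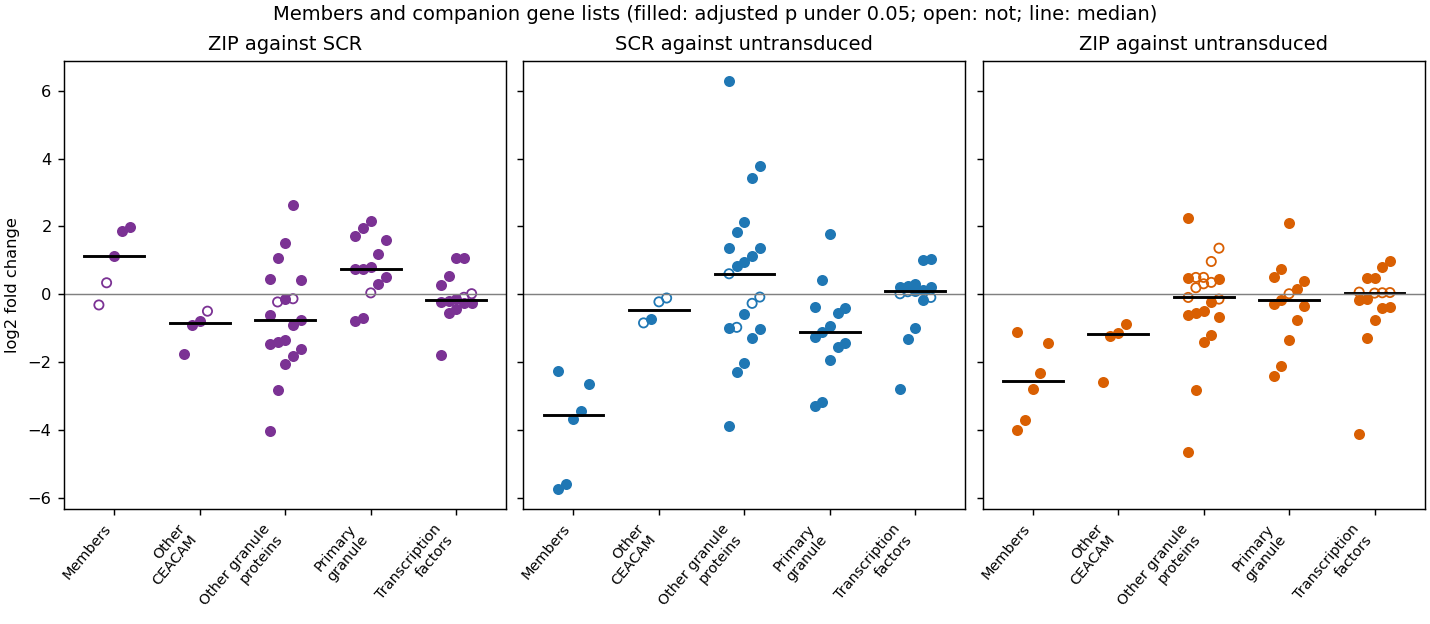
Log2 fold change (vertical) of each tested gene in the members and 4 companion lists (horizontal), in the 3 comparisons; filled points passed (adjusted p under 0.05), open points did not, and the black line is the median. Member medians lie at 1.14, -3.55 and -2.55 from left to right (OLFM4 included in the last pair), and the primary granule medians at 0.76, -1.10 and -0.18.

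The genes most like each member were found by the distance between centred log2(CPM + 0.5) profiles over the 5 libraries, which form 3 groups, among 12657 genes with a group mean of at least 1 CPM. CEACAM6 was nearest to TM2D3 (distance 0.258), to MACC1, a gene of cell motility (0.287), and to CEACAM1 (0.329), against a median of 1.86 over all genes. CEACAM1 was nearest to the neutrophil serine protease gene PRSS57 (0.234) and to CEACAM6 (0.329), and then to MACC1 (0.390). PRSS57 stood at 35.9 CPM untransduced, 5.60 and 5.41 in SCR, and 14.4 and 14.6 in ZIP. CEACAM8 was nearest to XIST, the non-coding RNA of X inactivation (0.473), to LRRC26 (0.943) and to IGLL1, a surrogate light chain of early B cells (1.09). LRRC26 stood at 15.5 CPM untransduced, 0.986 and 0.856 in SCR, and 2.52 and 2.11 in ZIP.

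LTF was nearest to RAMP1 (0.444), to the plasma cell chaperone gene MZB1 (0.537) and to CPA3, a mast cell protease (0.577). MZB1 had 43.1 CPM untransduced, 8.52 and 8.37 in SCR, and 5.98 and 6.99 in ZIP, low in both transduced groups like LTF. OLFM4 was nearest to NPR2 (0.167), ZIK1 (0.182) and PRG3, an eosinophil granule protein (0.218), and PGLYRP1 to SPEG (0.185), a ribosomal pseudogene RPL21P97 (0.280) and SLC47A1 (0.295). At the low CPM of OLFM4 the added 0.5 flattens the profile, so that its distances are small for that reason too. The added 0.5 also flattens the profiles of CEACAM8, CEACAM1, LTF and PGLYRP1, which stood at 0.389 to 0.584 CPM in SCR. Distances of different members are therefore not on one scale.

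HL60 identity and other cell types were checked by markers. The promyelocytic MPO was abundant in all libraries. Monocyte markers summed to 6.80 CPM untransduced, 148 and 151 in SCR, and 16.2 and 16.7 in ZIP, with 6 of 6 higher in SCR than untransduced and 5 of 6 lower in ZIP than in SCR. Eosinophil and basophil markers summed to 698 CPM untransduced, 193 and 194 in SCR, and 110 and 106 in ZIP, with 4 of 6 lower in SCR than untransduced; no gene of this list was at 0 throughout. Maturing neutrophil markers summed to 436 CPM untransduced, 444 to 449 in SCR, and 307 to 312 in ZIP, a sum led by CSF3R and S100A9. In SCR against untransduced 2 of 8 tested were higher and 4 lower, among them FPR1 at 1.87, S100A8 at -1.06 and S100A12 at -1.73 on the log2 scale. In ZIP against SCR 1 of 7 was higher and 5 lower, opposite in sign to the 3 CEACAM members. Epithelial markers, of interest because CEACAM6 and LCN2 are also made by epithelia, summed to 1.16 to 5.06 CPM. KRT19 was at 0 in every library. Of 3 tested, 2 (MUC1 and KRT18) were higher in SCR than untransduced, and the same 2 were lower in ZIP than in SCR. KRT18 had no untransduced count and entered only through its SCR counts. Lymphoid markers were led by NKG7 (11.1 to 21.5 CPM). Of 4 T and NK cell markers tested in SCR against untransduced, 2 were higher and 1 lower. NKG7 was higher (log2 fold change 0.89), whereas CD3E, picked after its values were seen, was lower (-2.56) on 20 counts or fewer. CD3D, picked likewise, was the other gene higher, on 13 and 7 counts in SCR and none untransduced. CD3E entered only through its untransduced counts and CD3D only through SCR 1, so the filter set the direction of both. CD79A, the 1 B cell marker tested, stood at 4.26 CPM untransduced. It was lower in SCR (-0.87) and lower still in ZIP (-1.61 against untransduced). MS4A1, another B cell marker, was at 0. The part of these shifts in the values of the members was not tested.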

How the data were processed

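Gene expression was measured in 5 libraries of HL60 RNA, grouped by the treatment labels and titles (untransduced n = 1, SCR n = 2, ZIP n = 2). The deposited values are raw counts per gene, read as such from the values (whole numbers, unequal totals). Bowtie2 and featureCounts are listed in the submitters' processing notes, and the series' design text names TopHat 2, Cufflinks and HTSeq; no source used here says which of them made the counts, on which build, or whether strand was used. Totals were 24406580 to 30925067 counts. IDs were matched to symbols and GENCODE release 29 (44305 of 51055 genes).

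Counts were filtered (filterByExpr, minimum count 10, minimum total 15), TMM-scaled and tested with the edgeR 4.0.16 quasi-likelihood test in R 4.3.3, with Benjamini-Hochberg adjustment over all genes at 0.05. ZIP against SCR used 4 libraries and comparisons with untransduced used 5, each with 2 residual degrees of freedom. SE is the log2 fold change divided by the square root of F. Alternatives were other scaling, DESeq2 1.42.0, no filter, another set of libraries, a replicate block and leaving out each transduced library in turn. The untransduced library has no replicate and could not be left out.

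The members and lists were chosen with earlier results of these data known. Genes were named by rule: all members; of each list the 4 of smallest p in ZIP against SCR; the 3 nearest profiles and chromosomal neighbours of members. Not every gene the rule allows is printed. Exceptions are marked.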

Additional observations from a re-analysis of the deposited data

How the results depend on the processing

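Under the settings tried, all 157 refitted log2 fold changes, those of members also tested in the reported fit, kept their sign and their side of the threshold, and so did the 28 recounts of members called, within 1.5 times. In ZIP against SCR 3 members passed under every setting except the fit on all 5 libraries, where 4 did, OLFM4 being added (adjusted p = 0.0297, against 0.0612 with no filter). In ZIP against untransduced DESeq2 called 5 of 6, since it gave no adjusted p for OLFM4. The fall of OLFM4 in SCR was moved by single libraries, from a log2 fold change of -5.73 to -4.89 without SCR 1 and to -8.07 without SCR 2, SCR 1 having no count. With the replicate number of the titles as a block, 3 members again passed in ZIP against SCR. Between SCR 1 minus SCR 2 and ZIP 1 minus ZIP 2, r was 0.080 across 10315 genes. Counting error also lowers r, so that value does not settle whether the numbers pair the libraries. No blocked fit was run against the untransduced library, whose title carries no number. Over all settings LTF ranged from -0.45 to -0.20 and PGLYRP1 from 0.094 to 0.65 in ZIP against SCR, with adjusted p of at least 0.365. Depth limits LCN2, CAMP, OLFM4 and CRISP3, for which only large differences could be seen.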

Other observations

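Receptors, partners and inducers of the member proteins moved mostly against the 3 CEACAM members. Of 10 tested, 8 were higher in SCR than in the untransduced library and 0 lower (edgeR), beside 32.7% and 32.2% of all genes. In ZIP against SCR 3 were higher and 7 lower (median -1.39), beside 32.2% and 33.2% of all genes. In ZIP against untransduced 7 were higher and 1 lower, beside 28.5% and 29.7% of all genes. LRP1, an endocytic receptor that binds lactoferrin, had 0.960 CPM untransduced, 41.0 and 44.9 in SCR, and 7.91 and 8.48 in ZIP. PTPN6, the phosphatase recruited by the inhibitory motifs of CEACAM1, had 312 CPM untransduced, 534 and 535 in SCR, and 319 and 314 in ZIP. NFKBIZ, a co-activator of LCN2, rose from 0.501 CPM untransduced to 6.31 and 6.15 in SCR, with 1.34 and 1.74 in ZIP, while LCN2 itself had no count in these groups. VDR, the vitamin D receptor that induces CAMP, had 41.5 CPM untransduced, 39.2 and 37.3 in SCR, and 56.7 and 56.5 in ZIP. TREM1, a receptor of PGLYRP1, and HAVCR2, a partner of CEACAM1, picked after their values were seen, were also highest in SCR: TREM1 had 0.376 CPM untransduced, 2.64 and 2.65 in SCR and 0.261 and 0.248 in ZIP, and HAVCR2 had 0.292, then 4.54 and 4.90, then 1.14 and 1.16.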
